A study of Mus musculus with 12 samples.

Results

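The genes described here make the building blocks of protein and DNA: 46 genes of amino acid supply, folate one-carbon metabolism and nucleotide synthesis, taken as a fixed list of symbols. Each was found by its symbol in the platform annotation, and where a gene had several probe sets the one with the highest mean over the 12 arrays was used. This gave 45 of the 46, out of 18820 genes measured, and Pycr1 was not analysed here. The 45 fall into 21 genes of the kind that the transcription factor ATF4 is known to control, together with ATF4 itself and its partners (the ATF4-type genes), and 24 genes of purine, pyrimidine and deoxynucleotide supply (the nucleotide genes).

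Expression was measured with the Mouse Gene 1.1 ST array of Affymetrix in cultured B lymphoma cells of λ-MYC;B1-8f mice (strain C57BL/6J x BALB/c). All 4 groups carry the λ-MYC transgene, in which immunoglobulin lambda elements drive MYC in B cells, and the B1-8f heavy chain, whose variable part Cre can delete. All cultures received TAT-Cre, a cell-permeable recombinase, so that cells with the B-cell receptor (BCR-positive) and without it (BCR-negative) grew side by side for 4 days, untreated or with CHIR99021, an inhibitor of the kinase GSK3. The 2 populations were then separated by sorting, at a time when BCR-negative cells were being lost from the culture, and each of the lymphomas 2564, 2646 and 2676 gave 1 array to each of the 4 groups (untreated BCR-positive, untreated BCR-negative, treated BCR-positive, treated BCR-negative).

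ATF4 is translated when amino acids run short or when proteins misfold, and it switches on enzymes that make serine, asparagine and proline and the transporters that import amino acids. Serine feeds folate one-carbon metabolism, whose carbon units enter the purine ring and thymidylate, so the amino acid and nucleotide branches are joined. Dividing lymphoma cells depend on both, MYC is known to drive many of these enzymes, and several deoxynucleotide enzymes peak in S phase.

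To show what the start regions of these genes hold, RefSeq promoter windows of build GRCm38.p6 (250 bases before to 50 after each start site) were searched on both strands for 3 motifs, and in the windows of these genes no match of one overlapped a match of another. A window was found for 40 of the 45 genes, 47 windows in all. The ATF4 composite site, TGATGNAA, was in 4 of 21 windows of ATF4-type genes (19.0%) and in 1 of 26 windows of nucleotide genes (3.85%), against 3.97% of all 32851 windows. The E-box CACGTG, a form that MYC can bind, was in 1 of the 21 (Aldh18a1) and 5 of the 26 (19.2%; Atic, Paics, Dtymk and both windows of Nme1), against 7.15% of all. An E2F site, TTTCCCGC or TTTGGCGC, was in none of the 21 and in 2 of the 26 (Ppat and Prps2), against 1.56% of all. The 6 stretches printed here end with the match, in capitals. The first 3 are ATF4-type genes whose levels under CHIR99021 are described further on. Prps1 is the one nucleotide gene with that site, and Dtymk and Nme1 are nucleotide genes with an E-box that were lower in BCR-negative cells. Atic and Paics, the other nucleotide genes with an E-box, passed in no comparison.
Asns (chr6:7693225-7693272, minus strand): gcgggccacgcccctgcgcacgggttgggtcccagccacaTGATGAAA
Slc1a4 (chr11:20332710-20332757, minus strand): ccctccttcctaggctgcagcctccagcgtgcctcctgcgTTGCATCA
Chac1 (chr2:119351009-119351056, plus strand): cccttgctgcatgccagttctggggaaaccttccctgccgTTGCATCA
Prps1 (chrX:140456393-140456440, plus strand): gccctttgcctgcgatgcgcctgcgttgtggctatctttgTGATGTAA
Dtymk (chr1:93802077-93802122, minus strand): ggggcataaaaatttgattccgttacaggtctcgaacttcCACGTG
Nme1 (chr11:93968285-93968330, minus strand): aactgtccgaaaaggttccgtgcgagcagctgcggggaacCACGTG
The match in Slc1a4 spans the start site, from base -4 to base 4, that in Asns runs from -23 to -16 and that in Nme1 from -18 to -13. In Chac1, Prps1 and Dtymk it begins at -193, -170 and -148. Trib3 has the fourth match among ATF4-type genes, and Trib3, Chac1 and Prps1 passed in no comparison. A match is a description of the letters and not of binding.

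Levels are the deposited log2 values, differences are log2 differences within lymphomas with the standard error (SE) of limma (n = 3 lymphomas), and a gene is said to rise or fall only where limma's adjusted p over all 18820 genes was under 0.05. Where groups are said not to overlap, this only describes their values. The share of all genes whose groups do not overlap was not counted. It is therefore no support for a difference that did not pass. Array medians over all probe sets were 4.79 to 4.84 in untreated BCR-positive, 4.82 to 4.92 in untreated BCR-negative, 4.71 to 4.84 in treated BCR-positive and 4.78 to 4.86 in treated BCR-negative cells. Ighv1-72, the segment of the B1-8 heavy chain, differed by -2.11 ± 0.331 in BCR-negative cells untreated (limma, adjusted p = 0.0176) and by -2.95 with CHIR99021 (adjusted p = 0.0498). Of 6 B-cell markers, Cd79b (11.42), Cd79a (11.28), Pax5 (10.20) and Ebf1 (10.11) were high and Ms4a1 was at 3.24. The mean level of 5 T-cell markers was 4.10 to 4.24 on all arrays and that of 5 stromal markers 4.54 to 4.68. No marker level on this scale can be 0.

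Most of the 45 genes were highly expressed. Their median level was 9.73, the 92.7th percentile of all genes, and 32 had a mean level of at least 9. Levels ran from 5.26 (Trib3) to 11.34 (Paics), and the regulators of the ATF4 class had the lowest class median, 6.11.

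**Figure D1:**
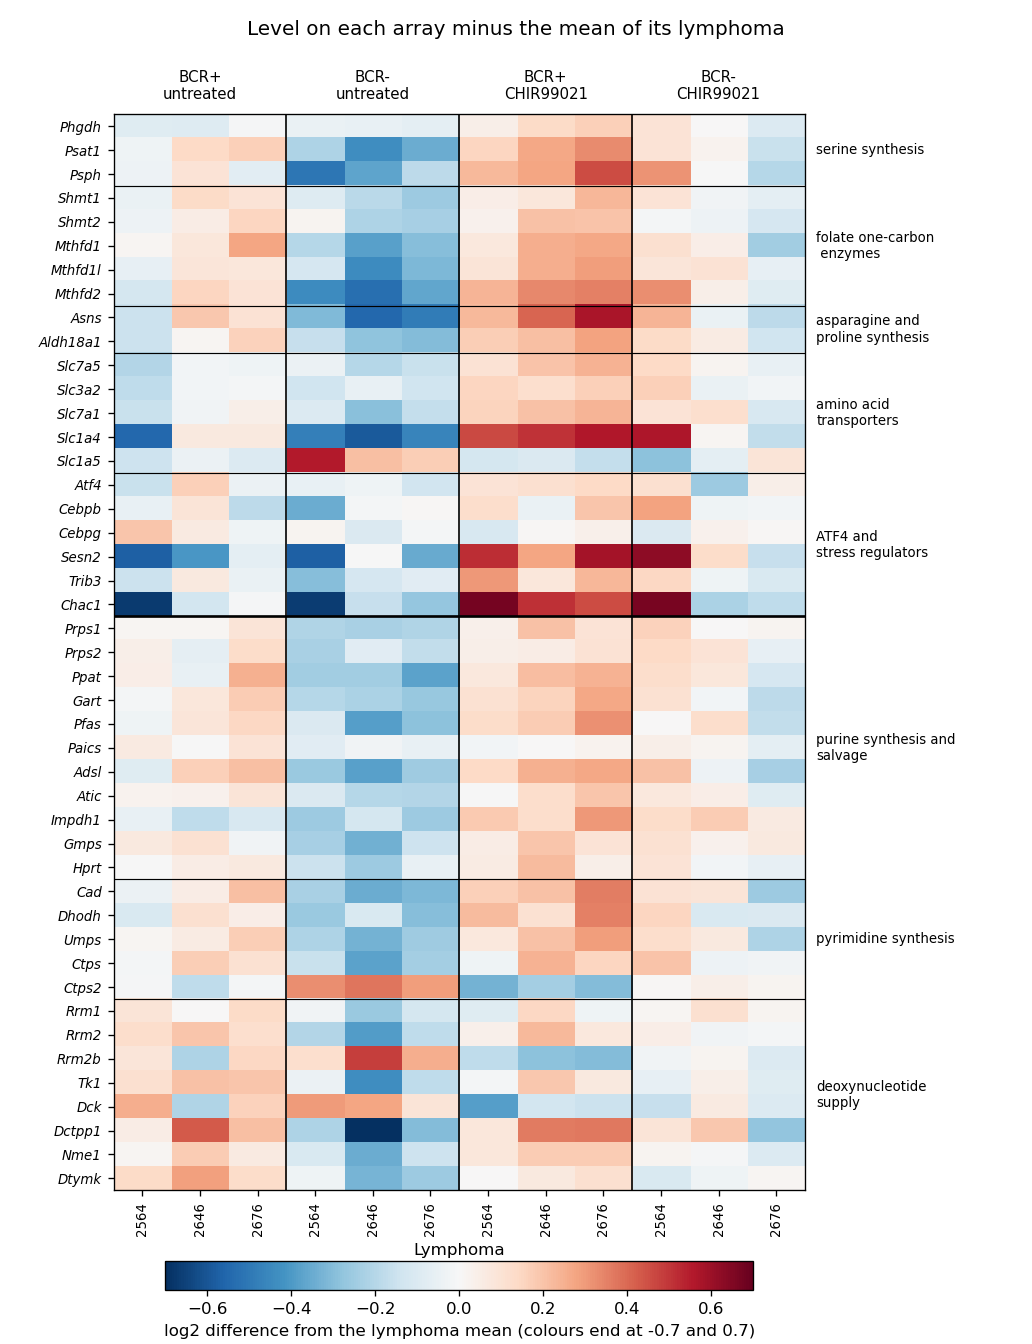
Colours give, for each of the 45 genes (rows, by role) and 12 arrays (columns, by group and lymphoma), the log2 level minus the mean of that gene over the 4 arrays of the lymphoma. The untreated BCR-negative columns are mostly blue and the treated BCR-positive columns mostly red, with Ctps2, Slc1a5, Rrm2b and Dck coloured the other way in most lymphomas.

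The first comparison asked what loss of the BCR did to these genes in untreated cultures. Of the 45, 6 passed: Ctps2 rose, and Psat1, Mthfd2, Gmps, Rrm2 and Dtymk fell (limma, adjusted p from 0.0173 to 0.0487). In the whole series 4.20% of genes passed. The difference was negative for 39 of the 45, with a median of -0.24, against 51.0% of all genes and a median of -0.00. For a background of like level, the 2614 genes with a mean level of at least 9 were also taken, a limit chosen after the values were seen. Of these 7.61% passed and 66.4% were negative, with a median of -0.07. Of the 32 listed genes at that level 5 passed and 29 were negative, with a median of -0.29. Over all genes 359 were called higher and 432 lower, and this split was 350 to 738 after array medians were subtracted and 448 to 216 after cyclic loess. The listed genes split 1 to 5 as deposited, 1 to 9 and 1 to 1 in the same order.

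With CHIR99021 in the culture, limma called 0 of the 45 for BCR loss, where 0.0159% of all genes passed, and 7 (15.6%) were at an unadjusted p under 0.05, against 8.65% of all genes. The difference was negative for 39 of 45 here as well, with a median of -0.15, against 47.7% of all genes and 57.3% of those at a level of 9 or more. The mean of the untreated and treated differences, which uses all 12 arrays, was called for 11 genes, where 6.63% of all genes passed: Ctps2 rose, and Psat1, Mthfd1, Mthfd2, Asns, Gart, Cad, Umps, Rrm2, Nme1 and Dtymk fell. That mean includes the untreated difference, and 5 of its 11 calls are those of the untreated comparison. At a level of 9 or more it was called for 12.7% of genes and for 10 of the 32 listed genes (31.25%). The all-gene split of 596 higher and 651 lower for this mean became 513 to 1252 after array medians were subtracted and 664 to 394 after cyclic loess.

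**Figure D2:**
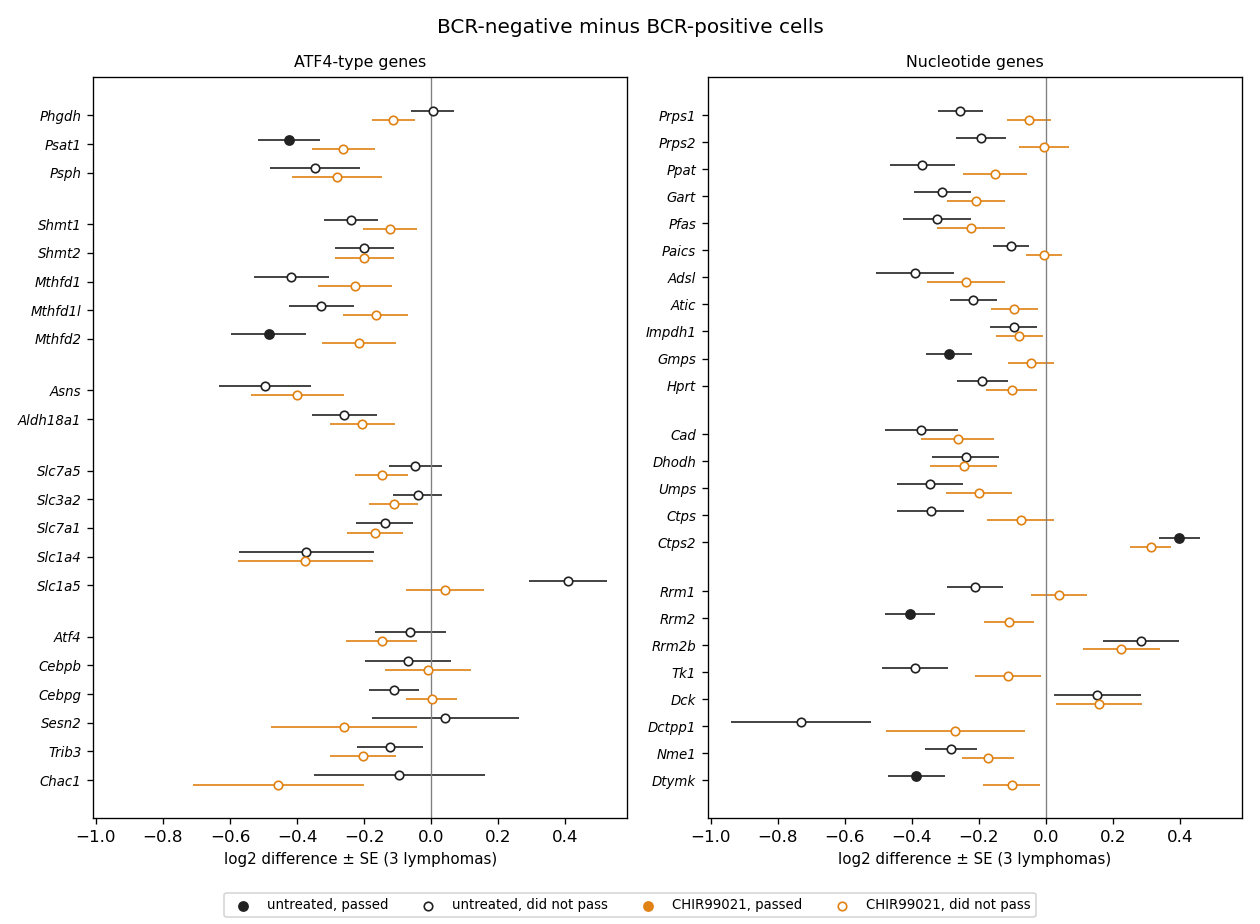
Points give the log2 difference of BCR-negative minus BCR-positive cells with its SE (3 lymphomas) for each of the 45 genes, in black for untreated and orange for CHIR99021 cultures, filled where the limma adjusted p was under 0.05. Most points lie left of 0, the 6 filled points are all untreated, and many nucleotide genes lie nearer to 0 with CHIR99021.

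The other comparisons asked what CHIR99021 did in each population. In BCR-positive cells it called 0 of the 45, where 0.0744% of all genes passed, and 15 (33.3%) were at an unadjusted p under 0.05, against 10% of all genes and 15.8% of those at a level of 9 or more. There 35 differences were positive with a median of 0.10, against 51.2% of all genes and 53.8% of those at that level. In BCR-negative cells Mthfd2, Impdh1 and Gmps rose and Ctps2 fell (limma, adjusted p from 0.0310 to 0.0431), 4 of 45 where 3.68% of all genes passed. There 41 of 45 differences were positive with a median of 0.22, against 54.2% and 0.01 over all genes and 64.6% and 0.06 over the 2614 genes at a level of 9 or more. Of those 2614 genes 6.20% passed, and of the 32 listed genes at that level 2 passed (6.25%), a like share. The all-gene split in BCR-negative cells was 360 higher and 332 lower as deposited, 449 to 313 after array medians were subtracted and 232 to 415 after cyclic loess. Averaged over the populations, CHIR99021 was called for 9 of 45, where 7.38% of all genes passed: Mthfd2, Asns, Slc7a5, Slc7a1, Slc1a4, Sesn2, Impdh1 and Gmps rose and Ctps2 fell. Its all-gene split of 736 to 653 became 926 to 584 after array medians were subtracted and 557 to 766 after cyclic loess. In this average 14.15% of the 2614 genes at a level of 9 or more passed. Of the 32 listed genes at that level 5 passed (15.62%), a like share. Both populations of a lymphoma shared each culture, so this average compares 3 treated with 3 untreated cultures. The model has no term for culture and counts both arrays of a culture separately, so these p-values can be too small. Counts of treated against untreated pairs given below have the same limit, because pairs of the same lymphoma share their cultures. The comparison of BCR loss without CHIR99021 and that of CHIR99021 in BCR-negative cells share the 3 untreated BCR-negative arrays, so a high or low value there moves both, in opposite directions, and their calls are not independent.

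**Figure D3:**
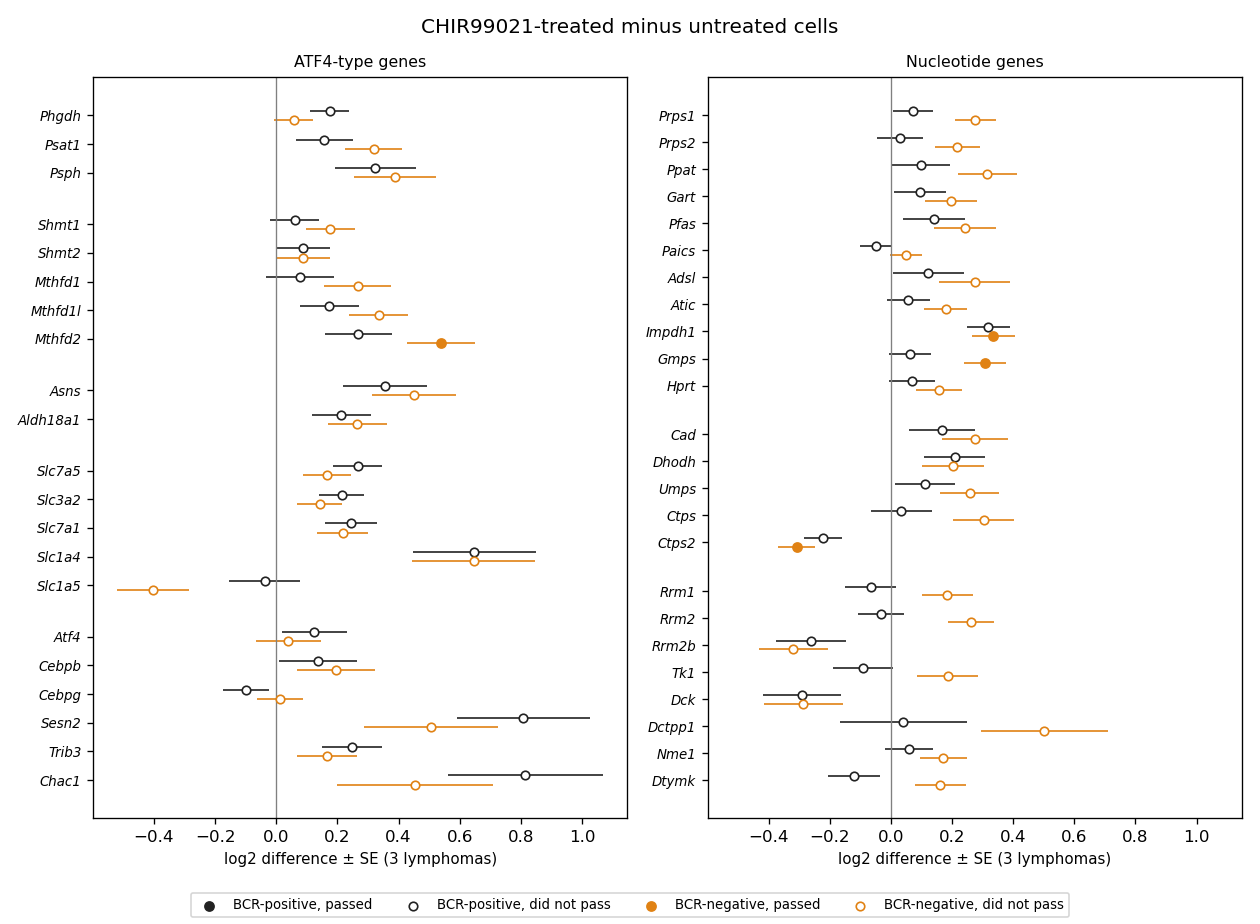
Points give the log2 difference of treated minus untreated cells with its SE (3 lymphomas), in black for BCR-positive and orange for BCR-negative cells, filled where the limma adjusted p was under 0.05. Most points lie right of 0. Sesn2, Chac1 and Slc1a4 have the largest differences in BCR-positive cells, and Slc1a4 and Mthfd2 in BCR-negative cells. Ctps2, Rrm2b, Dck and Slc1a5 lie left of 0 in both populations.

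In serine synthesis Psat1, the middle step, fell on BCR loss, and the first and last steps did not pass. Psat1 encodes the aminotransferase of the pathway. It had levels in lymphomas 2564, 2646 and 2676, in this order here and below, of 10.82, 10.47 and 10.49 in untreated BCR-positive cells and 10.63, 9.90 and 9.98 in untreated BCR-negative cells, and with CHIR99021 11.00, 10.61 and 10.66 (BCR-positive) and 10.94, 10.36 and 10.17 (BCR-negative). Within each lymphoma the BCR-negative array was the lower one in both cultures, although the groups overlap across lymphomas. Untreated, Psat1 fell by 0.42 ± 0.0932 (1.34-fold; limma, adjusted p = 0.0390), and with CHIR99021 the difference was -0.26 ± 0.0932 (adjusted p = 0.524). Psph, the phosphatase of the last step, was at 6.86, 6.90 and 6.62 in untreated BCR-positive cells and 6.39, 6.44 and 6.51 in untreated BCR-negative cells, groups that do not overlap, with a difference of -0.35 ± 0.134 that did not pass (adjusted p = 0.173). Phgdh, the dehydrogenase of the first step, differed by 0.00 ± 0.0639, an interval of -0.14 to 0.15, and its sign turns when array medians are subtracted. CHIR99021 differences of the 3 genes were positive in both populations, from 0.06 to 0.39, and none passed.

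Of the 5 folate one-carbon enzymes 1 (20%) fell in untreated BCR-negative cells, Mthfd2, which also rose there with CHIR99021. In these 2 comparisons 4.20% and 3.68% of all genes passed, and 7.61% and 6.20% of those at a level of 9 or more. The mean untreated difference was negative for all 5, against 51.0% of all genes and 66.4% of those at a level of 9 or more, and in lymphoma 2564 it was positive for Shmt2. Mthfd2, the mitochondrial dehydrogenase that carries serine's carbon unit, had levels of 10.29, 9.74 and 10.39 in untreated BCR-positive cells and 9.97, 9.07 and 9.93 in untreated BCR-negative cells, and with CHIR99021 10.65, 9.93 and 10.64 (BCR-positive) and 10.74, 9.64 and 10.21 (BCR-negative). It was lowest of the 4 arrays in untreated BCR-negative cells in every lymphoma, where it fell by 0.48 ± 0.111 (1.40-fold; limma, adjusted p = 0.0441). With CHIR99021 it rose in BCR-negative cells by 0.54 ± 0.111 (1.45-fold; adjusted p = 0.0337) and had a difference of 0.27 ± 0.111 in BCR-positive cells (adjusted p = 0.450). Treated BCR-negative cells stood at 0.05 ± 0.111 against untreated BCR-positive cells, an interval of -0.19 to 0.30.

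Mthfd1, the cytosolic enzyme that makes the formyl group for purines, was at 10.25, 10.06 and 10.10 in untreated BCR-positive cells and 10.04, 9.61 and 9.52 in untreated BCR-negative cells, and with CHIR99021 10.31, 10.24 and 10.09 (BCR-positive) and 10.35, 10.03 and 9.57 (BCR-negative). The untreated groups do not overlap, the difference of -0.42 ± 0.111 did not pass alone (limma, adjusted p = 0.0638), and over both cultures Mthfd1 fell by 0.32 ± 0.0783 (adjusted p = 0.0420). Its mitochondrial relative Mthfd1l (untreated -0.33 ± 0.0961) and the serine hydroxymethyltransferases Shmt1 (-0.24 ± 0.0805) and Shmt2 (-0.20 ± 0.0878) did not pass in any comparison.

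Asparagine synthetase, Asns, is a classical ATF4 target and carries the site printed above. Its levels were 10.61, 9.41 and 9.73 in untreated BCR-positive cells and 10.45, 8.68 and 9.14 in untreated BCR-negative cells, and with CHIR99021 10.99, 9.64 and 10.20 (BCR-positive) and 11.00, 9.18 and 9.44 (BCR-negative). Lymphoma 2564 stood above the others in every group, so that the groups overlap. BCR-negative arrays were lower by 0.49 ± 0.137 untreated (limma, adjusted p = 0.0723) and 0.40 ± 0.137 with CHIR99021 (adjusted p = 0.522), and over both cultures Asns fell by 0.45 ± 0.0971 (1.36-fold; adjusted p = 0.0316). Over both populations CHIR99021 raised it by 0.40 ± 0.0971 (adjusted p = 0.0374), with positive differences in all 6 pairs of arrays. With CHIR99021 present the BCR difference by lymphoma was 0.01, -0.46 and -0.75, so that 2564 showed none. Aldh18a1, the first enzyme of proline synthesis, differed by -0.26 ± 0.0964 untreated and did not pass in any comparison.

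Among the amino acid transporters, CHIR99021 raised 3 of 5 over both populations and lowered none (limma). In that average 7.38% of all genes passed, and 14.15% of those at a level of 9 or more. Slc1a4, which carries alanine, serine and cysteine, had levels of 7.36, 7.45 and 8.19 in untreated BCR-positive cells and 7.42, 6.79 and 7.66 in untreated BCR-negative cells, and with CHIR99021 8.37, 7.89 and 8.69 (BCR-positive) and 8.47, 7.39 and 7.95 (BCR-negative). In every lymphoma both treated arrays were above the untreated array of the same population. Slc1a4 rose by 0.65 ± 0.143 over both populations (1.57-fold; limma, adjusted p = 0.0278), and the differences within each population, 0.65 (BCR-positive) and 0.65 (BCR-negative), did not pass alone. The BCR difference of Slc1a4 was 0.07, -0.66 and -0.53 untreated and 0.10, -0.49 and -0.73 with CHIR99021 by lymphoma, positive in 2564 and negative in the other 2.

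Slc7a5, the large neutral amino acid carrier, was at 10.75, 10.86 and 11.03 in untreated BCR-positive cells and 10.91, 10.68 and 10.91 in untreated BCR-negative cells, and with CHIR99021 11.06, 11.07 and 11.31 (BCR-positive) and 11.09, 10.89 and 11.01 (BCR-negative). The BCR-positive groups do not overlap, and Slc7a5 rose with CHIR99021 by 0.22 ± 0.0565 over both populations (limma, adjusted p = 0.0486). Slc7a1, the arginine and lysine carrier, was at 9.51, 9.23 and 9.51 in untreated BCR-positive cells and 9.57, 8.96 and 9.30 in untreated BCR-negative cells, and with CHIR99021 9.82, 9.46 and 9.71 (BCR-positive) and 9.76, 9.37 and 9.35 (BCR-negative). It rose by 0.23 ± 0.0597 (adjusted p = 0.0467), and all 6 treated arrays were above the untreated array of the same population and lymphoma. Slc3a2, the heavy chain that pairs with Slc7a5, had a difference of 0.18 ± 0.0520 that did not pass (adjusted p = 0.0705).

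Slc1a5, the main glutamine importer, was the one transporter with a positive BCR difference. It stood at 10.30, 10.83 and 10.49 in untreated BCR-positive cells and 11.00, 11.08 and 10.76 in untreated BCR-negative cells, and with CHIR99021 10.32, 10.77 and 10.42 (BCR-positive) and 10.15, 10.80 and 10.68 (BCR-negative). In each lymphoma the untreated BCR-negative array was the highest of the 4, with a difference of 0.41 ± 0.116 against untreated BCR-positive cells (limma, adjusted p = 0.0798) and of -0.40 ± 0.116 for CHIR99021 in BCR-negative cells (adjusted p = 0.0875). Neither passed, and both use the same 3 arrays.

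Of the 6 ATF4 regulators, Sesn2 alone passed, and Atf4 itself did not. Sesn2 passed only for CHIR99021 averaged over populations, where 7.38% of all genes passed. Sesn2, the sestrin that senses leucine and restrains mTORC1, had levels of 5.84, 5.61 and 6.14 in untreated BCR-positive cells and 5.85, 6.01 and 5.85 in untreated BCR-negative cells, and with CHIR99021 6.93, 6.29 and 6.79 (BCR-positive) and 7.04, 6.15 and 6.04 (BCR-negative). Every treated array lay above every untreated array of its population, so that the groups do not overlap in either. Sesn2 rose by 0.66 ± 0.154 over both populations (1.58-fold; limma, adjusted p = 0.0346). By lymphoma the CHIR99021 difference was 1.09, 0.69 and 0.65 in the BCR-positive and 1.19, 0.13 and 0.19 in the BCR-negative population, so that in BCR-negative cells it was large in 2564 and small in the other 2.

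Chac1, which degrades glutathione and is a late ATF4 target, followed a like course without passing. It stood at 5.76, 5.63 and 5.83 in untreated BCR-positive cells and 5.76, 5.60 and 5.57 in untreated BCR-negative cells, and with CHIR99021 7.10, 6.27 and 6.30 (BCR-positive) and 7.09, 5.54 and 5.67 (BCR-negative). The BCR-positive groups do not overlap, whereas in BCR-negative cells the CHIR99021 difference was 1.33, -0.06 and 0.10 by lymphoma, near 0 in 2646 and 2676. The difference over both populations was 0.63 ± 0.180 (limma, adjusted p = 0.0648). Atf4 differed by -0.06 ± 0.106 for BCR loss untreated, -0.15 with CHIR99021, 0.12 for CHIR99021 in the BCR-positive and 0.04 in the BCR-negative population. These are mRNA levels, while ATF4 is known to be set by translation. Its dimer partners Cebpb and Cebpg and the pseudokinase Trib3 had differences in the same 4 comparisons between -0.20 (Trib3, BCR loss with CHIR99021) and 0.25 (Trib3, CHIR99021 in BCR-positive cells), and none passed.

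**Figure D4:**
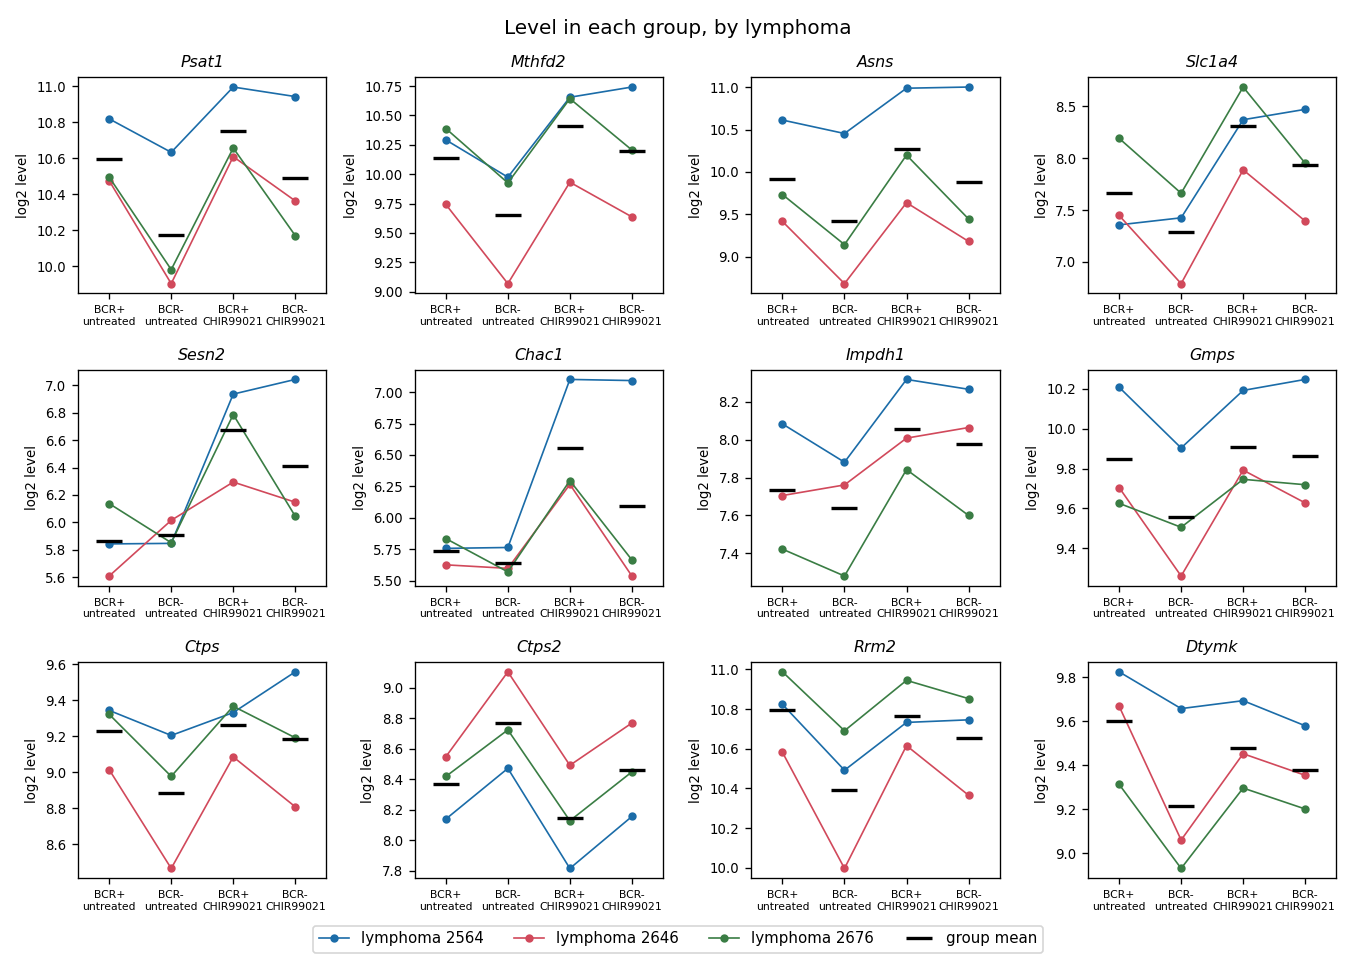
Lines join the log2 levels of 1 lymphoma across the 4 groups for 12 of the genes, with black bars for the group means (3 arrays). Psat1, Mthfd2, Gmps and Rrm2 are lowest in untreated BCR-negative cells in every lymphoma, as is Dtymk except in 2564, Ctps2 peaks there, and Sesn2 and Chac1 of lymphoma 2564 are high in both treated groups.

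Of the 11 purine genes 1 (9.09%) fell in untreated BCR-negative cells. In that comparison 4.20% of all genes passed, and 7.61% of those at a level of 9 or more. The mean difference was negative for all 11, with a class median of -0.25, against 51.0% of all genes and 66.4% of those at a level of 9 or more, and in lymphoma 2646 it was positive for Impdh1. Gmps, which makes GMP from XMP, had levels of 10.21, 9.71 and 9.63 in untreated BCR-positive cells and 9.90, 9.26 and 9.51 in untreated BCR-negative cells, and with CHIR99021 10.19, 9.79 and 9.75 (BCR-positive) and 10.25, 9.63 and 9.72 (BCR-negative). Its untreated BCR-negative array was the lowest of the 4 in each lymphoma. Gmps fell by 0.29 ± 0.0688 on BCR loss (1.22-fold; limma, adjusted p = 0.0487) and rose by 0.31 ± 0.0688 with CHIR99021 in BCR-negative cells (adjusted p = 0.0431), and treated BCR-negative cells stood at 0.02 ± 0.0688 against untreated BCR-positive cells.

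Impdh1, an enzyme of the step before Gmps, passed for CHIR99021 and not for BCR loss. It stood at 8.08, 7.71 and 7.42 in untreated BCR-positive cells and 7.88, 7.76 and 7.28 in untreated BCR-negative cells, and with CHIR99021 8.32, 8.01 and 7.84 (BCR-positive) and 8.27, 8.06 and 7.60 (BCR-negative). Each treated array was above its untreated partner. Impdh1 rose by 0.34 ± 0.0701 in BCR-negative cells (1.26-fold; limma, adjusted p = 0.0350), its difference in BCR-positive cells was nearly as large but did not pass (0.32 ± 0.0701, adjusted p = 0.137), and over both it rose by 0.33 ± 0.0496 (adjusted p = 0.00757). BCR loss gave -0.10 ± 0.0701, an interval of -0.25 to 0.06.

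Gart, the trifunctional enzyme of early purine ring assembly, was at 10.94, 10.78 and 10.68 in untreated BCR-positive cells and 10.76, 10.48 and 10.23 in untreated BCR-negative cells, and with CHIR99021 11.06, 10.85 and 10.77 (BCR-positive) and 11.07, 10.68 and 10.31 (BCR-negative). BCR-negative arrays were the lower ones in both cultures except in treated 2564. Gart fell by 0.26 ± 0.0607 over both cultures (limma, adjusted p = 0.0379). The remaining purine genes did not pass in any comparison: untreated BCR loss gave -0.37 ± 0.0962 for Ppat, which commits the pathway, -0.39 ± 0.116 for Adsl, -0.33 ± 0.101 for Pfas, -0.25 and -0.19 for the PRPP synthetases Prps1 and Prps2, -0.22 for Atic and -0.19 for the salvage enzyme Hprt. Paics, the highest of all at 11.34, gave -0.10 ± 0.0533, and a second probe set listed under Paics, at a mean level of 6.12, gave -0.341 ± 0.103 (SD, n = 3).

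In pyrimidine synthesis the CTP synthetase pair had differences of opposite sign. Ctps2 had levels of 8.14, 8.55 and 8.42 in untreated BCR-positive cells and 8.47, 9.10 and 8.72 in untreated BCR-negative cells, and with CHIR99021 7.82, 8.49 and 8.13 (BCR-positive) and 8.16, 8.77 and 8.45 (BCR-negative). In all 6 pairs of arrays the BCR-negative one was higher, and in all 6 the treated one was lower than its untreated partner. Ctps2 rose by 0.40 ± 0.0619 on BCR loss untreated (1.32-fold; limma, adjusted p = 0.0173) and by 0.36 ± 0.0438 over both cultures (adjusted p = 0.00545), and fell by 0.31 ± 0.0619 with CHIR99021 in BCR-negative cells (adjusted p = 0.0310). Its paralog Ctps stood at 9.34, 9.02 and 9.32 in untreated BCR-positive cells and 9.21, 8.47 and 8.98 in untreated BCR-negative cells, lower in every BCR-negative array, with a difference of -0.34 ± 0.0994 that did not pass (adjusted p = 0.0815).

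Cad, which carries the first steps of the pathway, and Umps, which carries the last ones to UMP, passed only in the average over cultures. Cad was at 10.01, 9.69 and 9.73 in untreated BCR-positive cells and 9.82, 9.29 and 9.20 in untreated BCR-negative cells, and with CHIR99021 10.21, 9.84 and 9.87 (BCR-positive) and 10.15, 9.73 and 9.26 (BCR-negative), and fell by 0.32 ± 0.0764 (limma, adjusted p = 0.0408). Umps was at 9.60, 9.31 and 9.14 in untreated BCR-positive cells and 9.37, 8.92 and 8.72 in untreated BCR-negative cells, and with CHIR99021 9.66, 9.46 and 9.26 (BCR-positive) and 9.71, 9.32 and 8.75 (BCR-negative), and fell by 0.27 ± 0.0691 (adjusted p = 0.0471). In both, lymphoma 2676 had the largest BCR difference and 2564 the smallest. Dhodh, the mitochondrial step between them, differed by -0.24 ± 0.0712 over both cultures and did not pass (adjusted p = 0.0717).

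In deoxynucleotide supply, Rrm2 and Dtymk fell on BCR loss in untreated cultures and the p53-inducible paralog Rrm2b had a positive difference. Rrm2, the S phase subunit of ribonucleotide reductase, had levels of 10.82, 10.58 and 10.99 in untreated BCR-positive cells and 10.49, 10.00 and 10.69 in untreated BCR-negative cells, and with CHIR99021 10.73, 10.62 and 10.95 (BCR-positive) and 10.75, 10.37 and 10.85 (BCR-negative). The untreated BCR-negative array was the lowest of the 4 in each lymphoma. Rrm2 fell by 0.41 ± 0.0750 (1.32-fold; limma, adjusted p = 0.0268), and with CHIR99021 the difference was -0.11 ± 0.0750, an interval of -0.28 to 0.06. Rrm2b was at 6.98, 6.43 and 6.79 in untreated BCR-positive cells and 7.01, 7.13 and 6.91 in untreated BCR-negative cells, with a difference of 0.28 ± 0.114 (adjusted p = 0.194) carried mainly by 2646, and Rrm1, the large subunit, gave -0.21 ± 0.0834 with groups that do not overlap (adjusted p = 0.183).

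Dtymk, the thymidylate kinase with an E-box in its window, was at 9.82, 9.67 and 9.31 in untreated BCR-positive cells and 9.66, 9.06 and 8.93 in untreated BCR-negative cells, and with CHIR99021 9.69, 9.45 and 9.30 (BCR-positive) and 9.58, 9.36 and 9.20 (BCR-negative). BCR-negative arrays were lower in all 6 pairs. Dtymk fell by 0.39 ± 0.0845 untreated (1.31-fold; limma, adjusted p = 0.0388), and with CHIR99021 the difference was -0.10 ± 0.0845. Nme1, a nucleoside diphosphate kinase, was at 9.92, 9.89 and 9.90 in untreated BCR-positive cells and 9.80, 9.37 and 9.69 in untreated BCR-negative cells, and with CHIR99021 9.98, 9.89 and 10.02 (BCR-positive) and 9.92, 9.71 and 9.75 (BCR-negative). The untreated groups do not overlap, and over both cultures Nme1 fell by 0.23 ± 0.0549 (adjusted p = 0.0408).

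Dctpp1, which breaks down dCTP, had the largest untreated difference of the 45 genes without passing. It stood at 10.03, 9.94 and 9.93 in untreated BCR-positive cells and 9.77, 8.53 and 9.42 in untreated BCR-negative cells, groups that do not overlap. The difference of -0.73 ± 0.208 (limma, adjusted p = 0.0787) was -0.26, -1.41 and -0.52 by lymphoma, largest in 2646. Tk1, the S phase thymidine kinase, gave -0.39 ± 0.0990 (adjusted p = 0.0569), and Dck, the deoxycytidine kinase, 0.15 ± 0.129 (adjusted p = 0.589).

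Whether CHIR99021 changed the BCR difference was tested by the interaction, the BCR difference with CHIR99021 minus that without. It was called for 0 of the 45 and 0 of all genes (0% of 18820, against 990 genes and 3 listed genes at an unadjusted p under 0.05), and the smallest adjusted p among the 45 was 0.928. The 3 were Rrm2 (0.30 ± 0.106), Dtymk (0.28 ± 0.119) and Gmps (0.24 ± 0.0973). Of the 24 nucleotide genes 21 were positive with a median of 0.13, and of the 21 ATF4-type genes 10 were positive with a median of -0.00. Over all genes 54.0% were positive with a median of 0.01, and over the 2614 genes at a level of 9 or more 65.1% with a median of 0.04. The median BCR difference of the nucleotide genes was -0.29 untreated and -0.10 with CHIR99021, and that of the ATF4-type genes -0.14 and -0.20. For CHIR99021 in BCR-positive and BCR-negative cells the medians were 0.06 and 0.21 for nucleotide genes, and 0.21 and 0.22 for ATF4-type genes. These are descriptions, and the difference between the kinds was not tested.

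Treated BCR-negative cells were also set against untreated BCR-positive cells. The latter are a group of the same day 4 from another culture, and no array shows the cells before treatment. Of the 45, 0 passed, where 0.0159% of all genes passed, and 3 (6.67%) were at an unadjusted p under 0.05, a smaller share than the 8.74% of all genes. The median was -0.04. The 3 were Impdh1 (0.24 ± 0.0701), Sesn2 (0.55 ± 0.218) and Dtymk (-0.22 ± 0.0845). The mean difference was negative for all 8 deoxynucleotide genes, with a class median of -0.14. The share was 46.7% of all genes and 54.9% of those at a level of 9 or more. In lymphomas 2564, 2646 and 2676, 6, 5 and 8 of the 8 were negative, and only 3 were negative in every lymphoma. The 8 include Rrm2b and Dck, whose untreated BCR differences were positive.

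The lymphomas differed in size of the BCR difference. The median of the 21 ATF4-type genes in untreated cultures was -0.01, -0.27 and -0.26, and with CHIR99021 0.02, -0.17 and -0.35. For the 24 nucleotide genes it was -0.16, -0.30 and -0.30 untreated and 0.05, -0.14 and -0.17 with CHIR99021. Lymphoma 2564 was nearest to 0 in all 4. Without 2564 limma called 10 of the 45 for untreated BCR loss, and without 2646 or 2676 it called 0. For CHIR99021 in BCR-negative cells, leaving out any 1 lymphoma left 0 calls.

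**Figure D5:**
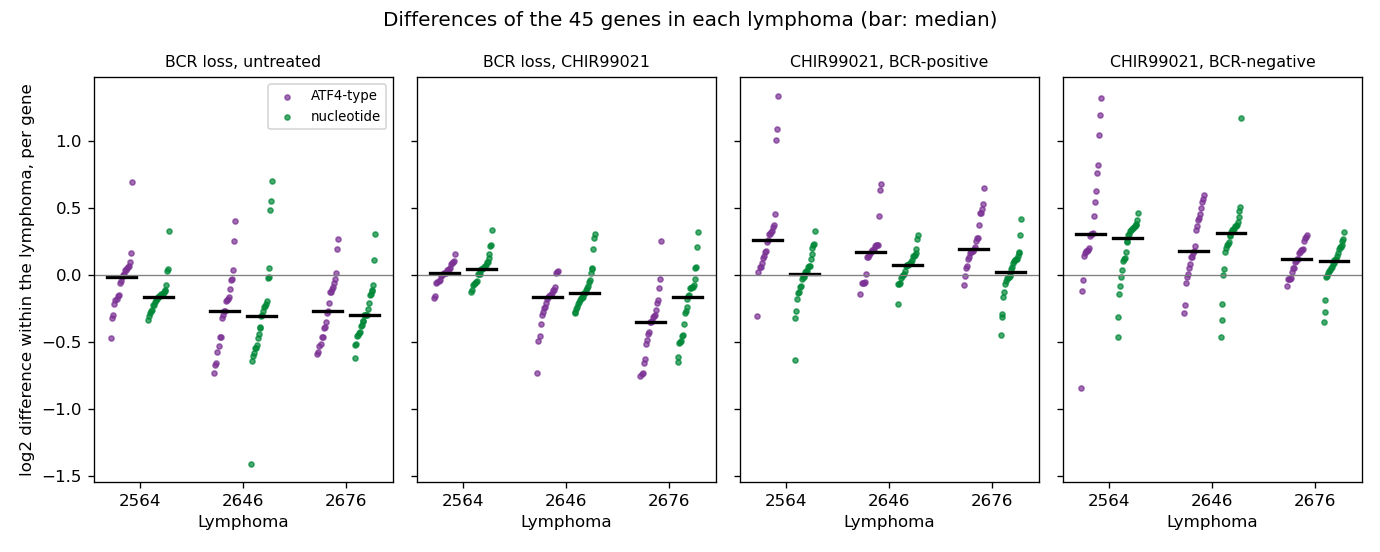
Points give the log2 difference of each gene within 1 lymphoma, sorted by size, for 21 ATF4-type genes (purple) and 24 nucleotide genes (green), with bars for the medians. In the BCR comparisons the bars of lymphoma 2564 lie nearest to 0, and the highest ATF4-type points under CHIR99021 belong to 2564.

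Genes of the same pathways outside the 45 were looked at as 3 lists. Of 30 other genes of the integrated stress response, 1 rose on untreated BCR loss, Ppp1r15a (1.29 ± 0.311; limma, adjusted p = 0.0499), the phosphatase subunit that ends that response, a share of 3.33% where 4.20% of all genes passed. The list median was -0.13, with 10 differences positive and 20 negative, from -0.74 to 2.15. The highest, which did not pass, was also the highest of all genes. CHIR99021 raised 5 of the 30 over both populations, where 7.38% of all genes passed, with the smallest p for Cth (0.42 ± 0.0898), which makes cysteine, the alanine transaminase Gpt2 (0.80 ± 0.186) and the asparaginyl-tRNA synthetase Nars (0.31 ± 0.0726). Of 17 other folate and methionine cycle genes 4 fell on untreated BCR loss, against the same 4.20%. The smallest p were those of Dld (-0.27 ± 0.0512), of the mitochondrial folate carrier Slc25a32 (-0.46 ± 0.0903) and of methionine synthase Mtr (-0.28 ± 0.0648). Slc25a32 (0.47 ± 0.0903) and Dld (0.24 ± 0.0512) rose with CHIR99021 in BCR-negative cells, on the same untreated arrays.

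Of 30 other nucleotide genes 5 fell and 1 rose on untreated BCR loss, against 4.20% of all genes, with a list median of -0.18. The smallest p among those that fell were those of the nucleotidase Nt5c2 (-0.28 ± 0.0488), the purine nucleoside phosphorylase Pnp (-0.54 ± 0.100) and the dUTPase Dut (-0.43 ± 0.0928). Tk2, the mitochondrial thymidine kinase, rose (0.31 ± 0.0680; limma, adjusted p = 0.0408) and fell with CHIR99021 in BCR-negative cells (-0.43 ± 0.0680; adjusted p = 0.0150).

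Of 15 genes of S phase 4 fell on untreated BCR loss, where 4.20% of all genes passed, with the smallest p for Ccne1 (-0.81 ± 0.136), Orc1 (-0.71 ± 0.135) and Mcm2 (-0.33 ± 0.0655). The untreated difference was negative for all 15, with a median of -0.30, against 51.0% of all genes. With CHIR99021 their median BCR difference was -0.02, and their interaction was positive in all 15 with a median of 0.22 and no call. Fewer cells in S phase and less RNA of these genes per cell cannot be told apart in sorted bulk samples, and the part of S phase in the nucleotide values was not tested. Of the 6 B-cell markers Cd79b, Pax5 and Ebf1 fell with CHIR99021 over both populations, and the mean level of the 6 was 9.25 to 9.59 on the untreated and 8.73 to 9.32 on the treated arrays. Of 6 myeloid markers Csf1r rose over both populations and Lyz2 in BCR-negative cells, with list means of 4.03 to 4.89 untreated and 3.95 to 4.86 treated. These means join unlike levels. In treated BCR-positive cells Csf1r was at 8.53 in lymphoma 2646 and 4.83 in 2564. Itgam was at 8.035 and 5.455 in untreated BCR-negative cells of the same lymphomas. Lyz2 ran only from 3.52 to 4.28 over all arrays. Of 5 plasma cell markers Irf4 and Slamf7 fell with CHIR99021 averaged over populations and Irf4 rose on BCR loss averaged over cultures, with no call in any single comparison and list means of 7.14 to 7.54 untreated and 6.78 to 7.37 treated. The part of these markers in the results was not tested.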

How the data were processed

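The data were 12 arrays of RNA from 3 lymphomas in 4 groups. The authors deposited probe set levels as log2 values. The submitters' processing notes name RMA and Affymetrix Power Tools, with versions not given in the sources used here. No depth exists for arrays, and their number limits the precision. Of 35556 probe sets, 23099 were listed in the platform annotation, 21218 with 1 gene symbol and 1881 with several, and the probe set with the highest mean stood for each of 18820 genes.

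A model with group and lymphoma (6 residual degrees of freedom) was fitted to all 12 arrays with limma 3.58.1 in R 4.3.3, with eBayes and p-values adjusted by Benjamini-Hochberg across 18820 genes. Lymphoma is a block because both populations of an independent lymphoma shared cultures, per the design text of the series. The culture itself was not a term of this model. Deviations from group means correlated at 0.813 to 0.907 within lymphomas (18 pairs) and -0.625 to -0.248 between them (48 pairs). The deviations of the 3 arrays of a group cancel out, so negative values between lymphomas are built in. P-values rest on the residual variance of each gene, pooled over all groups and the 3 lymphomas and moderated across genes by eBayes. The SE of a gene is therefore the same in every comparison between single groups. It is not the spread of that particular difference among the 3 lymphomas. RMA brings arrays to 1 distribution and compresses differences of dim probe sets.

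The model was tested on simulated data with known shifts, for untreated BCR loss only, in 5 runs. On average 75.8% of 100 genes shifted by 0.5 and 93% of 100 shifted by 1 (log2) were recovered. A mean of 7.8 of 176.6 calls were false. Noise was independent for each array, without an effect of culture, so these runs say nothing about the limit from shared cultures. Levels on every array are given for each gene called in any comparison, and genes of other lists are named by smallest p among those called, at most 3 per list and direction. The genes, lists, roles and tests were chosen with earlier results of these data known. Alternatives were no block, a random block, a block per co-culture, a fit to only the 6 arrays compared, dim genes left out (below the 30th percentile), probe sets of a gene averaged, array medians subtracted, cyclic loess, trend and robust variances, and leaving out each lymphoma and array. Promoter windows came from RefSeq, build GRCm38.p6.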

Additional observations from a re-analysis of the deposited data

How the results depend on the processing

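Counts are of the 45 genes called by limma. BCR loss in untreated cultures (6 called) gave 0 without the replicate block, 0 with lymphoma as a random block, 3 with a block per co-culture, 0 with only the 6 arrays compared, 10 after array medians were subtracted and 2 after cyclic loess. Leaving out 1 lymphoma or array gave 0 to 11: 10, 0 and 0 without lymphomas 2564, 2646 and 2676, and in the same order 3, 0 and 0 without their untreated BCR-positive arrays, 10, 0 and 3 without the untreated BCR-negative, 4, 2 and 2 without the treated BCR-positive and 8, 2 and 11 without the treated BCR-negative ones. CHIR99021 in BCR-negative cells (4 called) gave 0 without the replicate block, 0 with a random block, 0 with only the 6 arrays compared and 2 after cyclic loess. Omissions gave 0 to 8: 0 without any 1 lymphoma, and for the arrays, in the same orders, 4, 3 and 1, then 1, 0 and 1, then 4, 2 and 1, then 0, 0 and 8. BCR loss averaged over cultures (11 called) gave 0 without the replicate block, 0 with a random block, 4 with a block per co-culture, 23 after array medians were subtracted and 5 after cyclic loess. Omissions gave 0 to 26: 26, 0 and 0 for lymphomas, and 12, 1 and 1, then 17, 2 and 4, then 14, 1 and 1, then 20, 1 and 1 for arrays. CHIR99021 averaged over populations (9 called) gave 0 without the replicate block, 0 with a random block, 14 with the dim filter and 14 with trend and robust variances. Omissions gave 0 to 19: 3, 0 and 0 for lymphomas, and 4, 7 and 7, then 10, 4 and 6, then 8, 2 and 2, then 4, 3 and 19 for arrays. CHIR99021 in BCR-positive cells had 1 call with only the 6 arrays compared and 0 otherwise. The other 3 comparisons had 0 under every alternative run.

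The calls thus depend on the pairing by lymphoma and on single arrays. The 30 called values had 687 alternative values, of which 314 were still called, 373 were not, and 0 changed sign. Signs of small differences that did not pass turned with scaling for Phgdh after array medians were subtracted and for Slc3a2 and Slc7a5 after cyclic loess (untreated BCR loss), and for Atf4, Cebpg and Paics after cyclic loess (CHIR99021 in BCR-negative cells). Of the 45 genes 0 were below the 30th percentile of levels that the dim filter uses.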

Other observations

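Second probe sets of 5 genes gave values of their own. The pair listed for Ctps, at mean levels of 9.14 and 5.12, gave -0.344 ± 0.205 and -0.205 ± 0.111 (SD, n = 3) for untreated BCR loss, and the pair listed for Shmt2, at 11.07 and 4.99, gave -0.199 ± 0.229 and -0.114 ± 0.018. All 3 probe sets listed for Phgdh were near 0 in that comparison, at 0.005 ± 0.057, 0.007 ± 0.115 and 0.011 ± 0.155, and all 3 were positive for CHIR99021 in BCR-positive cells, at 0.175 ± 0.050, 0.195 ± 0.089 and 0.186 ± 0.157.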
